A study of Mus musculus with 9 samples.

Results

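A group of 10 genes that mark T cells and natural killer (NK) cells was followed in mouse liver, each matched to the tables by its symbol. They were Cd3d, Cd3e, Cd3g, Cd4, Cd8a, Cd8b1, Nkg7, Gzma, Gzmb and Klrd1, and all 10 were found among the 17846 genes of the tables. RNA had been sequenced from the whole liver of 9 male wild-type mice of a strain labelled C57/BL and named C57BL/6 in the methods of the study, 3 in each of 3 groups. Control mice ate a normal diet and were sedentary. NASH mice were sedentary and received the Ath diet, a feed with cholesterol and cholate that gives a model of non-alcoholic steatohepatitis, for 20 weeks. NASH+Exercise mice ate the Ath diet over the same time and ran on a treadmill for the last 8 weeks, from 12 weeks of diet onwards, at an age of 20 weeks. Livers were taken after a night without food. How the 3 sequenced mice of each group were picked is not given in the sources used here.

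The T cell receptor recognises an antigen and cannot signal by itself, and the CD3 chains carry its signal into the cell. CD4 and CD8 are coreceptors that bind the major histocompatibility molecules and divide T cells into helper and cytotoxic kinds. Cytotoxic T cells and NK cells kill through granules that hold perforin and granzymes, and NK cells read their targets with receptors such as CD94, the product of Klrd1. The liver holds many NK cells and T cells beside its macrophages, the Kupffer cells. Several of these genes are not private to one cell type, since dendritic cells of some kinds also carry CD4 or the CD8 alpha chain, and Nkg7, the granzymes and Klrd1 are shared by T cells and NK cells.

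The genes lie on 5 chromosomes, given here on GRCm38.p6 with the span that RefSeq annotates for the whole gene, exons and introns together. The 3 CD3 genes form a cluster at chr9:44969572-45009663, with Cd3g at chr9:44969572-44980431 on the minus strand, Cd3d at chr9:44981769-44987052 on the plus strand and Cd3e at chr9:44998735-45009663 on the minus strand. Cd3g and Cd3d are read away from each other, and 1338 bases separate their starts. Cd8b1 at chr6:71322788-71337492 and Cd8a at chr6:71373427-71379171 both lie on the plus strand. Chromosome 6 also holds Cd4 at chr6:124864693-124888247 on the minus strand and Klrd1 at chr6:129588092-129598775 on the plus strand. Nkg7 is at chr7:43437138-43438246 on the plus strand, Gzma at chr13:113093824-113100981 on the minus strand and Gzmb at chr14:56258836-56262334 on the minus strand. Gzma overlaps Cdc20b on the other strand, with 0 shared exon bases, and Cdc20b had an estimated count of at most 5.05 in any mouse.

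RefSeq promoter sequences were given for 7 of the 10 genes, that is all but Cd4, Cd8b1 and Klrd1. The 190 bases before the annotated gene start are shown 5′ to 3′ on the strand of the gene for 6 of them, the CD3 cluster and the 3 granule genes, because these groups are compared with each other below. Capitals mark the letters of 6 motifs searched on both strands, and the seventh sequence, of Cd8a, held none of them. The windows are Cd3g at chr9:44980432-44980621, Cd3d at chr9:44981579-44981768, Cd3e at chr9:45009664-45009853, Nkg7 at chr7:43436948-43437137, Gzma at chr13:113100982-113101171 and Gzmb at chr14:56262335-56262524.
Cd3g: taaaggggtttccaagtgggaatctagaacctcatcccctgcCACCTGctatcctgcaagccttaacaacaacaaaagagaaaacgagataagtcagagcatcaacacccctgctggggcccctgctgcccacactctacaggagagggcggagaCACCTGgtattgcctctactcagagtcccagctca
Cd3d: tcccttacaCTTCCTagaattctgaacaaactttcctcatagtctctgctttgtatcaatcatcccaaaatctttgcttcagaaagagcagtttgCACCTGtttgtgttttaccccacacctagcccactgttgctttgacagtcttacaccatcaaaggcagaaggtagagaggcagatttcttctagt
Cd3e: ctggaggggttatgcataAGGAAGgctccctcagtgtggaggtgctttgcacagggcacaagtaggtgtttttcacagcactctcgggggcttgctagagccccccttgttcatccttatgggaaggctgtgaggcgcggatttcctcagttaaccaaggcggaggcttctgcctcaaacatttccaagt
Nkg7: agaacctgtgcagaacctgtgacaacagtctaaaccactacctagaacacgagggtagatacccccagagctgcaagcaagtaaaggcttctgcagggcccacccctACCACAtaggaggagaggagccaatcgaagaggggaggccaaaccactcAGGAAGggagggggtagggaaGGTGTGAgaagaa
Gzma: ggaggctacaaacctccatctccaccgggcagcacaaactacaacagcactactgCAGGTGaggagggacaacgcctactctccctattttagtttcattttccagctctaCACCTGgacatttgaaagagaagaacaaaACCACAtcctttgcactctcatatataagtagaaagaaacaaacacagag
Gzmb: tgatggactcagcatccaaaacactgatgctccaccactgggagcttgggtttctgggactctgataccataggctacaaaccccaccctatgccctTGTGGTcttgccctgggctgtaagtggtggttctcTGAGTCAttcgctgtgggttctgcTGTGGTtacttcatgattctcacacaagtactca
The motifs were the RUNX motif TGTGGT, the ETS motif AGGAAG, the E-box CAGNTG, the AP-1 motif TGANTCA, the T-box motif TCACACC and the TATA box TATAAA. Among 32851 RefSeq promoter windows of this length, 10.6% held the RUNX letters, 23.6% ETS, 36.3% the E-box, 5.21% AP-1, 2.51% T-box and 9.44% TATA. RUNX letters stood in all 3 granule gene windows, once in Nkg7 and Gzma and at 2 places in Gzmb, and in none of the CD3 windows. The E-box was in Cd3d, at 2 places in Cd3g and at 2 places in Gzma, and ETS letters were in Cd3d, Cd3e and Nkg7. AP-1 letters were found in Gzmb alone and T-box letters in Nkg7 alone, the exact letters TATAAA in none, and no matches overlapped. Other forms of the TATA box were not searched. Bases just after the start were found in a GENCODE vM21 transcript for 6 of the 7 genes, and not for Gzmb. The reason was not tested, so the start of the Gzmb window is unchecked. GENCODE starts Gzmb 74 bases further in, from where its RUNX matches lie 167 and 108 bases upstream. It also starts Cd3e 36 and Cd3d 17 bases further in, and Nkg7 65 bases further upstream. These are matches of letters and not measured binding sites.

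Each library held between 20086004 and 22495449 estimated counts, and the 10 genes together took from 69.8 to 136.28 of them per Control mouse, from 607.9 to 705.45 per NASH mouse and from 297.59 to 406.72 per trained mouse. Single genes had 0 to 29.04 counts in Control mice, 21 to 112.4 in NASH mice and 2 to 97 in trained mice, so that counting error weighs most in the Control livers. All 10 genes passed the filter on low counts, and in Control only 2 of them reached its level in all 3 mice, against 10 in NASH and 8 in NASH+Exercise. Gzma alone passed only through the NASH mice. In the whole liver, fewer cells of a type and less RNA per cell cannot be told apart.

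Levels are given in TPM, in which transcripts are scaled by gene length and to the same total in each library, for the mice in the order Control 3, 4 and 29, NASH 5, 19 and 20, and NASH+Exercise 8, 18 and 22. Fold changes come from edgeR on the counts, scaled between libraries by TMM. TPM lack this scaling. On log2(TPM + 1), the median over all genes was 0.34 in NASH against Control and -0.26 in NASH+Exercise against NASH. With edgeR these medians were 0.013 and -0.033, so differences in TPM include a shift over all genes. A gene was called changed at a Benjamini-Hochberg adjusted p under 0.05 over all 13619 genes tested together with an absolute log2 fold change above 1. In counts over the lists of other genes below, rose and fell mean called higher and called lower.

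All 10 genes rose in NASH against Control, by 3.83-fold (Cd3d) to 7.38-fold (Gzmb), and in each of them every NASH liver was above every Control liver. Of all genes tested, 15.3% were called higher in NASH, and 27.4% were higher in every NASH mouse than in every Control mouse. The median log2 fold change was 2.35 over the 10 genes and 0.013 over all genes. Summed over the 10 genes, the level lay between 3.66 and 8.92 TPM in Control mice, between 38.95 and 44.17 TPM in NASH mice and between 13.86 and 23.84 TPM in trained mice, and these ranges did not overlap.

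**Figure D1:**
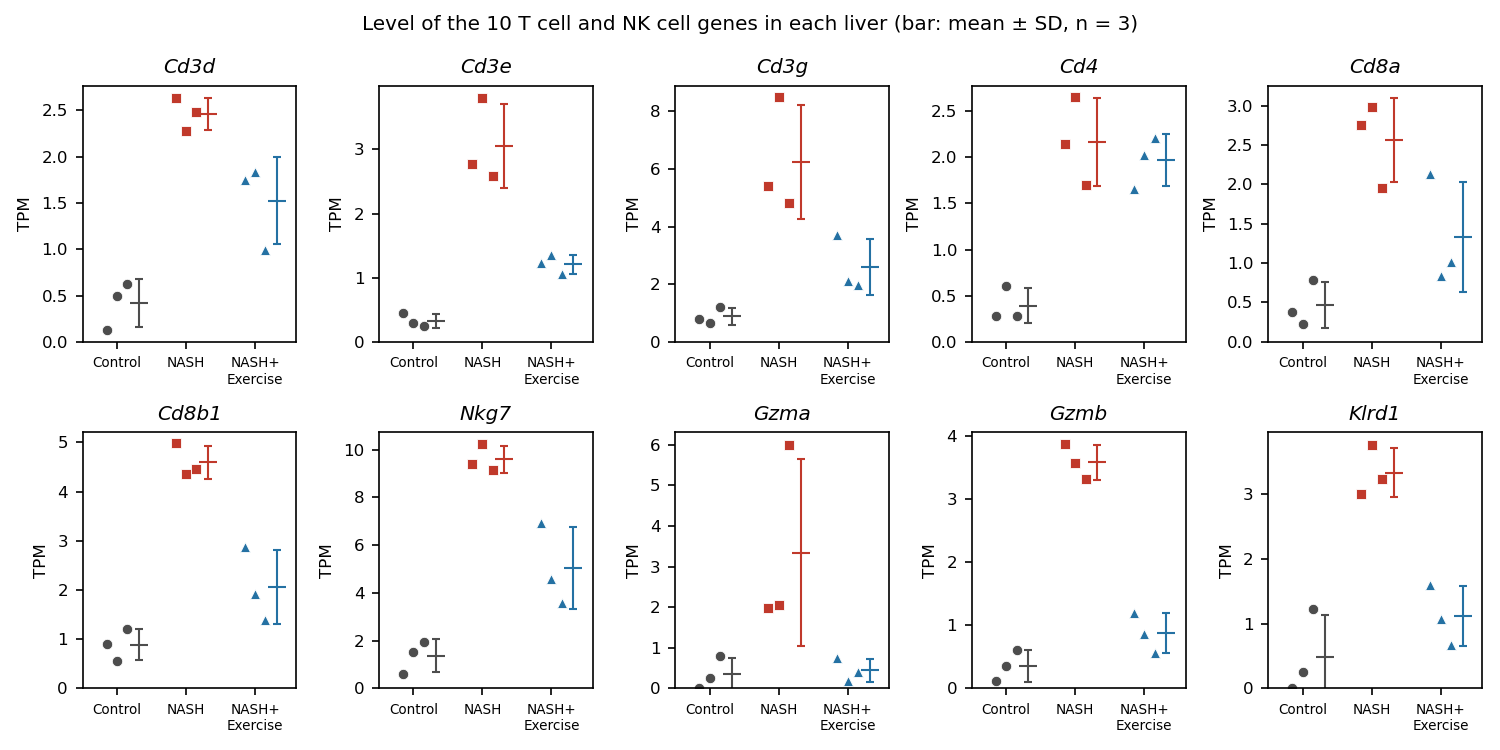
Level in TPM (vertical axis, own scale for each gene) of the 10 genes in each liver, with circles for Control, squares for NASH and triangles for NASH+Exercise, and the mean ± SD of 3 mice beside them, with bars cut at 0. NASH livers were above Control livers for all 10 genes, and in TPM the triangles lay below all squares for 8 genes but not for Cd4 and Cd8a.

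Among the CD3 chains, Cd3e was at 0.45, 0.30 and 0.24 TPM in Control, 2.78, 3.81 and 2.59 TPM in NASH and 1.23, 1.35 and 1.05 TPM in NASH+Exercise. Its 3 groups were fully apart, with the trained mice between the others. Cd3e rose 6.75-fold in NASH (log2 fold change 2.76, SE 0.33, edgeR adjusted p = 0.000126), the smallest adjusted p of the 10 genes. Cd3g was at 0.80, 0.64 and 1.2 TPM in Control, 5.4, 8.48 and 4.8 TPM in NASH and 3.72, 2.1 and 1.98 TPM in NASH+Exercise, again with 3 separate ranges. It rose 5.25-fold in NASH (log2 fold change 2.39, SE 0.31, edgeR adjusted p = 0.00023). Cd3d was at 0.13, 0.49 and 0.63 TPM in Control, 2.63, 2.28 and 2.48 TPM in NASH and 1.75, 1.84 and 0.99 TPM in NASH+Exercise. It rose 3.83-fold in NASH, with a log2 fold change of 1.94 (SE 0.45, edgeR adjusted p = 0.00723). Its TPM ranges stayed apart, whereas counts scaled by TMM overlapped between trained and NASH mice. The zeta chain of the same complex, encoded by Cd247 and also used by NK cell receptors, had a log2 fold change of 0.71 in NASH. It was not called (edgeR adjusted p = 0.193). In TPM, Cd247 ran from 0.3 to 1.56 in Control and from 2.39 to 3.11 in NASH, without overlap.

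Of the coreceptors, Cd4 was at 0.28, 0.61 and 0.28 TPM in Control, 2.14, 2.65 and 1.70 TPM in NASH and 1.66, 2.03 and 2.21 TPM in NASH+Exercise. NASH and trained livers lay in the same range, and both were above all Control livers. Cd4 rose 3.94-fold in NASH (log2 fold change 1.98, SE 0.38, edgeR adjusted p = 0.00237). Cd8a, the alpha chain of CD8, was at 0.38, 0.23 and 0.79 TPM in Control, 2.75, 2.99 and 1.96 TPM in NASH and 2.13, 0.84 and 1.02 TPM in NASH+Exercise. Trained mouse 8 was within the NASH range and the other two were below it. Cd8a rose 4.20-fold in NASH (edgeR adjusted p = 0.00214). Cd8b1, the beta chain, was at 0.90, 0.56 and 1.2 TPM in Control, 4.98, 4.35 and 4.46 TPM in NASH and 2.88, 1.92 and 1.38 TPM in NASH+Exercise. It rose 3.87-fold (edgeR adjusted p = 0.000489), and its NASH mice had a narrow spread of 4.60 ± 0.337 TPM (SD, n = 3).

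Among the granule genes, Nkg7, a granule membrane protein, was at 0.61, 1.53 and 1.95 TPM in Control, 9.42, 10.24 and 9.15 TPM in NASH and 6.94, 4.58 and 3.59 TPM in NASH+Exercise. It had the highest mean of the 10 genes in each group and rose 5.19-fold in NASH (log2 fold change 2.37, SE 0.34, edgeR adjusted p = 0.00042). Gzmb, the granzyme that cleaves after aspartate and starts apoptosis, was at 0.11, 0.35 and 0.61 TPM in Control, 3.86, 3.56 and 3.31 TPM in NASH and 1.19, 0.86 and 0.56 TPM in NASH+Exercise. The lowest trained mouse was inside the Control range in TPM, though not in counts scaled by TMM. Gzmb rose 7.38-fold in NASH (log2 fold change 2.88, SE 0.42, edgeR adjusted p = 0.000417). Gzma, the tryptase-like granzyme, was at 0, 0.25 and 0.80 TPM in Control, 1.98, 2.05 and 6 TPM in NASH and 0.74, 0.18 and 0.41 TPM in NASH+Exercise. NASH mouse 20 was far above the other NASH mice, and trained and Control mice were intermixed. Gzma rose 7.33-fold in NASH (log2 fold change 2.87, SE 0.79, edgeR adjusted p = 0.0173). Gzma entered the test only through the group where it is high, which favours a higher call there. The call was lost without NASH mouse 20 (log2 fold change 2.08, edgeR adjusted p = 0.0677) and without Control mouse 4 (adjusted p = 0.0541).

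Klrd1, the receptor chain that pairs with NKG2 proteins, was at 0, 0.25 and 1.22 TPM in Control, 3.01, 3.76 and 3.24 TPM in NASH and 1.60, 1.07 and 0.67 TPM in NASH+Exercise. Control mouse 29 was above 2 of the 3 trained mice. Klrd1 rose 5.02-fold in NASH (log2 fold change 2.33, SE 0.66, edgeR adjusted p = 0.0195), and this call too was lost without Control mouse 4 (adjusted p = 0.0643) or without NASH mouse 20 (adjusted p = 0.0512). Control mouse 29 had the highest TPM of its group for 8 of the 10 genes, and trained mouse 8 for 7 of 10 in its own.

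By mean TPM, the order in NASH was Nkg7 with 9.60, Cd3g with 6.23, Cd8b1 with 4.60, Gzmb with 3.58, Gzma and Klrd1 with 3.34 each, Cd3e with 3.06, Cd8a with 2.57, Cd3d with 2.46 and Cd4 with 2.16. Neighbours in this order had overlapping mice apart from Nkg7 against Cd3g and Cd8b1 against Gzmb. In NASH+Exercise, Nkg7 with 5.04, Cd3g with 2.6 and Cd8b1 with 2.06 were followed by Cd4 with 1.97, and Gzmb with 0.87 and Gzma with 0.443 came last. All neighbours overlapped there and in Control, where the means ran from 1.36 for Nkg7 to 0.33 for Cd3e.

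In NASH+Exercise against NASH, none of the 10 genes was called by edgeR, and 0.0367% of all genes tested were called lower and 0.103% higher. The log2 fold change was below 0 for 9 of the genes and above 0 for Cd4, and 54.9% of all genes had a log2 fold change under 0. After scaling between libraries, every trained liver was below every NASH liver in 7 genes, against 15% of all genes, and 6 genes had an unadjusted p under 0.05 with a lower level, against 10.7%. The median log2 fold change was -0.93 over the 10 genes and -0.033 over all genes. Gzma, one of the 7 genes, had passed the filter only through the NASH mice. This comparison and the one before share the NASH mice.

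**Figure D2:**
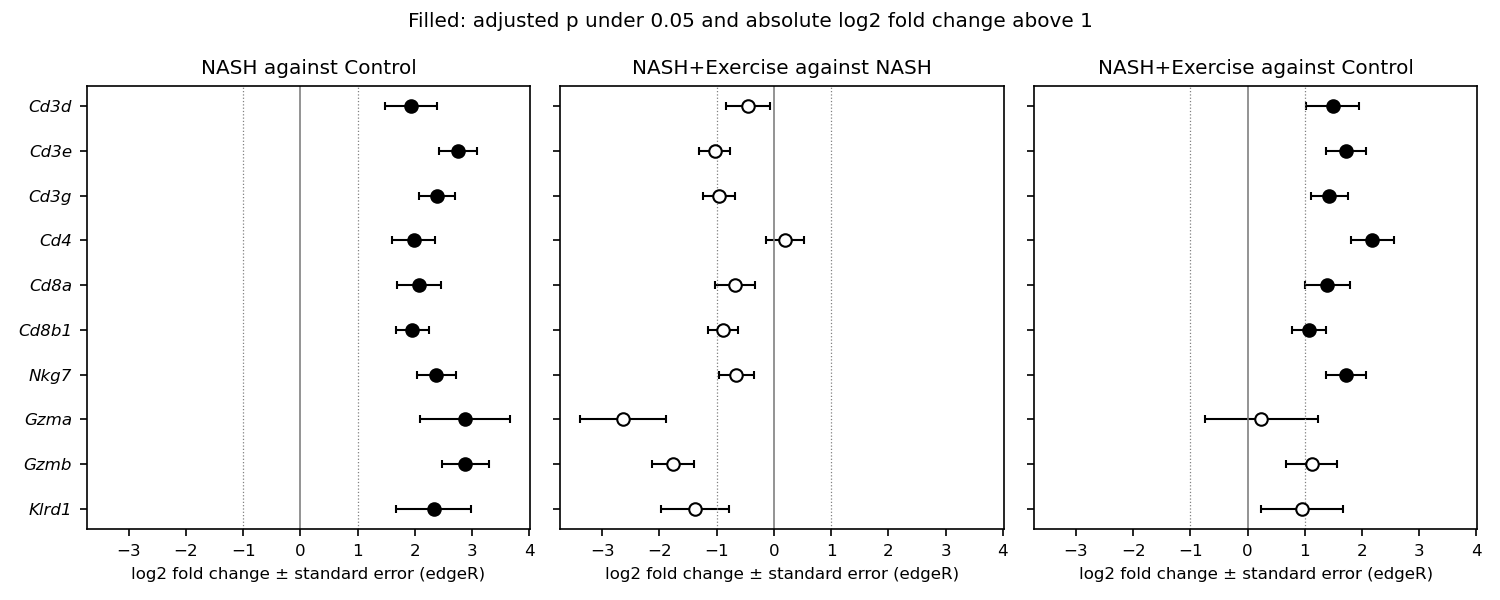
Log2 fold change from edgeR with its standard error (horizontal axis) for the 10 genes in the 3 comparisons, filled where the gene was called. All 10 points are filled in NASH against Control, none in NASH+Exercise against NASH, and 7 in NASH+Exercise against Control, the 3 exceptions being Gzma, Gzmb and Klrd1.

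The granzymes had the lowest values, with a log2 fold change of -2.63 for Gzma (SE 0.75, edgeR adjusted p = 0.166) and -1.76 for Gzmb (SE 0.37, edgeR adjusted p = 0.112). Klrd1 followed with -1.38 (SE 0.59, edgeR adjusted p = 0.306). Gzma entered the test only through the NASH mice, which favours a lower value in trained mice. NASH mouse 20 had 64 Gzma counts, against 21 in NASH mice 5 and 19. The call for Gzmb turned on the method, since it was called with DESeq2 on all 9 mice (log2 fold change -1.76, DESeq2 adjusted p = 0.00441), with DESeq2 on the 6 mice of the comparison, and with limma on log2(TPM + 1). Gzma was called by DESeq2 on the 6 mice alone (log2 fold change -2.62, DESeq2 adjusted p = 0.011). Among the CD3 chains the log2 fold changes were -1.04 for Cd3e (SE 0.28, edgeR adjusted p = 0.151), -0.97 for Cd3g (SE 0.28) and -0.45 for Cd3d (SE 0.39). The CD8 chains were at -0.88 for Cd8b1 (SE 0.26) and -0.68 for Cd8a (SE 0.35), and Nkg7 at -0.66 (SE 0.30). Cd4 stood at 0.20 (SE 0.33, edgeR adjusted p = 0.828) and its sign was not stable, since it was -0.03 when only the library size was scaled for.

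Compared with Control, 7 of the 10 genes were called higher in NASH+Exercise, against 10.4% of all genes. After scaling between libraries, 8 were higher in every trained mouse than in every Control mouse, against 21.5%. In TPM this held for 7 genes, and Gzma, Gzmb and Klrd1 overlapped. The median log2 fold change was 1.41 over the 10 genes and 0.003 over all genes. Cd4 was at 2.18 (edgeR adjusted p = 0.00192), Cd3e and Nkg7 at 1.72 each, Cd3d at 1.49, Cd3g at 1.43, Cd8a at 1.39 and Cd8b1 at 1.07, close to the limit of the call. The 3 genes not called were Gzmb at 1.12 (edgeR adjusted p = 0.0988), Klrd1 at 0.95 (edgeR adjusted p = 0.382) and Gzma at 0.24 (edgeR adjusted p = 0.892). This comparison shares its mice with the other two. The count of calls was 4 without Control mouse 3, without Control mouse 4 or without trained mouse 8, and 8 without Control mouse 29, when Klrd1 was called (log2 fold change 2.73, edgeR adjusted p = 0.0246).

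Ratios between genes within a liver do not depend on scaling between libraries, and 9 of them could be compared with an exact two-sided permutation test, in which 3 mice against 3 cannot give a p under 0.1. Cd4 per unit of the 3 summed CD3 chains was 0.198, 0.182 and 0.172 in NASH and 0.248, 0.384 and 0.550 in NASH+Exercise. Every trained mouse was above every NASH mouse, and the ratio was 2.04-fold higher (log2 difference 1.03, pooled SD 0.41, exact permutation p = 0.1, adjusted p = 0.3). The Control mice, at 0.203, 0.427 and 0.135, spanned both groups. The granzymes per CD3 chains were 0.540, 0.385 and 0.943 in NASH and 0.288, 0.197 and 0.241 in NASH+Exercise, lower in every trained mouse by 2.43-fold (log2 difference -1.28, exact permutation p = 0.1, adjusted p = 0.3). In Control this ratio was 0.0797, 0.420 and 0.681 and overlapped with both. The 0.943 was that of NASH mouse 20, which had the highest Gzma, and Gzma had passed the filter only through the NASH mice.

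Klrd1 per CD3 chains was 0.278, 0.258 and 0.328 in NASH and 0.239, 0.202 and 0.167 in NASH+Exercise, lower in every trained mouse by 1.43-fold (exact permutation p = 0.1, adjusted p = 0.3). The CD8 chains per CD3 chains were 0.715, 0.504 and 0.650 in NASH and 0.748, 0.522 and 0.597 in NASH+Exercise and did not separate (exact permutation p = 1). Nkg7 per CD3 chains had a log2 difference of 0.17 (exact permutation p = 0.5), and Cd8b1 per Cd8a overlapped between all groups. Cd8a per Cd4 was 1.29, 1.13 and 1.15 in NASH and 1.28, 0.414 and 0.462 in NASH+Exercise, where trained mouse 8 was within the NASH range and the others below it (exact permutation p = 0.3). In NASH against Control, 0 of the 9 ratios separated the groups.

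**Figure D3:**
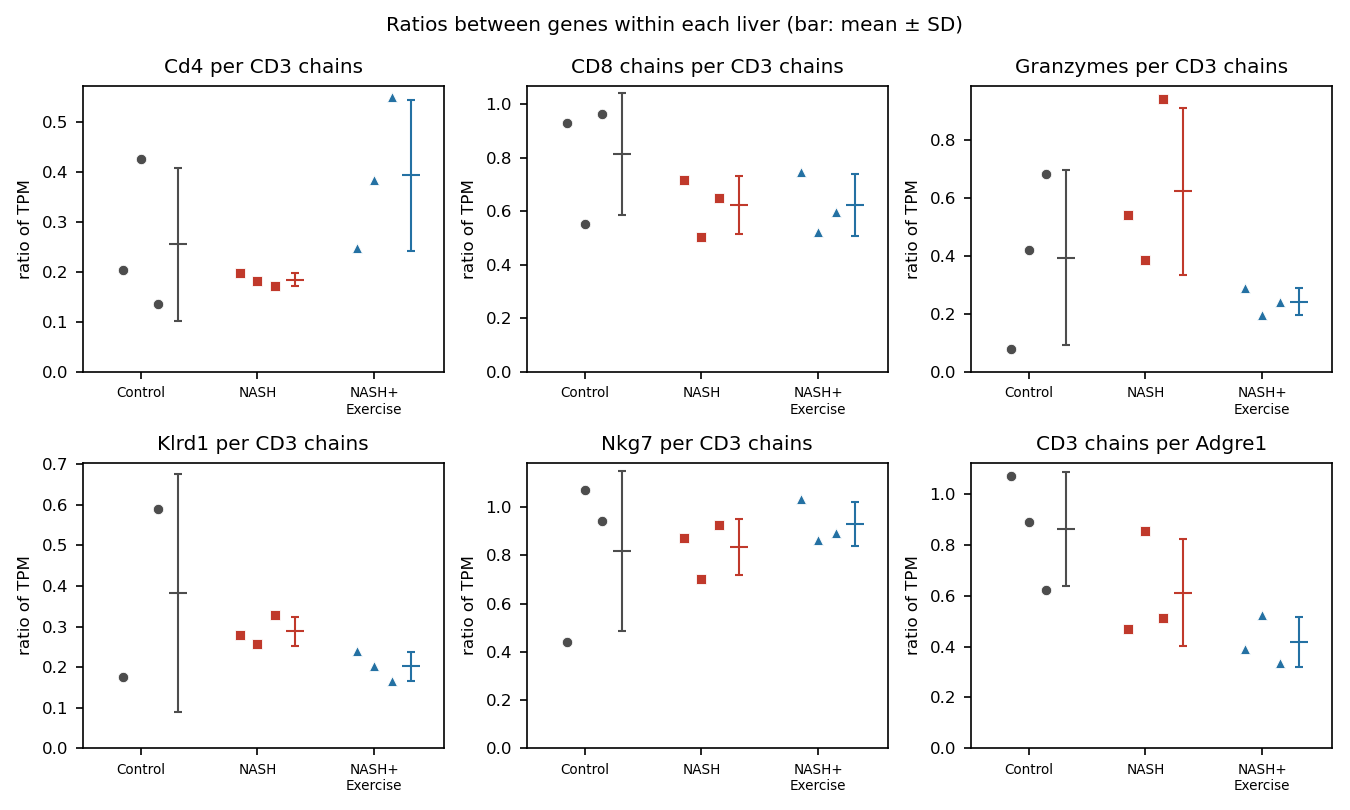
Ratios of TPM between genes within each liver (vertical axis, own scale), with circles for Control, squares for NASH, triangles for NASH+Exercise and the mean ± SD beside them. Cd4 per CD3 chains was higher, and granzymes and Klrd1 per CD3 chains lower, in every trained liver than in every NASH liver, while CD8 chains per CD3 chains overlapped. Klrd1 has 2 Control points, since it had 0 counts in Control mouse 3.

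The CD3 chains were also set against genes of other leukocytes. Ptprc, which encodes CD45 of all leukocytes, rose with a log2 fold change of 3.21 in NASH (edgeR adjusted p = 0.001) and stood at -0.64 in NASH+Exercise against NASH. Adgre1, which encodes the macrophage protein F4/80, rose with 2.87 in NASH and stood at -0.37 in trained against NASH mice. CD3 chains per Ptprc differed by a log2 of -0.97 between NASH and Control (exact permutation p = 0.2) and overlapped in each comparison. CD3 chains per Adgre1 were 1.07, 0.888 and 0.623 in Control, 0.468, 0.853 and 0.511 in NASH and 0.392, 0.526 and 0.335 in NASH+Exercise. They were 2.05-fold lower in trained than in Control mice, and lower in every mouse (exact permutation p = 0.1, adjusted p = 0.54).

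Other genes of T cells and NK cells were taken from lists. Some of their genes passed the filter on low counts only through the NASH mice, which favours a higher call there, namely 5 of 20 tested receptor and signalling genes, 5 of 8 helper and regulatory genes, 4 of 13 cytotoxic genes, 5 of 8 NK receptor genes, 3 of 13 exhaustion genes, 2 of 14 attracting signals and 1 of 8 naive and memory genes. Of 20 tested genes of the T cell receptor and its signalling, 16 rose and 1 fell in NASH, around a median of 1.95 on the log2 scale. Of all genes tested, 15.3% were called higher and 3.03% lower. Ubash3a, a phosphatase that dampens receptor signals, was at 3.47, and the surface receptors Cd5 and Cd6 at 3.07 and 2.99. The gene that fell was Zap70, the kinase that binds the CD3 chains after they are phosphorylated (log2 fold change -1.68, edgeR adjusted p = 0.0013). Zap70 was at 10.98, 16.16 and 12.78 TPM in Control, 3.22, 7.56 and 3.63 TPM in NASH and 5.52, 4.48 and 4.86 TPM in NASH+Exercise, so its Control level was far above that of any of the 10 genes. Of 8 tested naive and memory T cell genes 4 rose, among them Il7r at 3.34, Ccr7 at 2.87 and, named after its value was seen, Satb1 at 1.31, while S1pr1 at 0.20 and Tcf7 at 0.40 were not called. Of 16 helper and regulatory genes 8 were tested, and 5 of these rose. They were led by Foxp3, the factor of regulatory T cells, at 2.6, Ikzf2 at 2.42 and Gata3 at 2.33. Tbx21 and Il17re, named after their values were seen, were at 1.80 and 1.78. All 5 had passed only through the NASH mice. Bcl6 at -0.08 was not called. Mean levels in Control were 20.6 TPM for S1pr1, 2.45 TPM for Tcf7 and 20.7 TPM for Bcl6. Nkg7, the highest of the 10 genes, was at 1.36 TPM there. The part of other liver cells in these levels was not tested.

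Of 19 cytotoxic effector genes 13 were tested, and 12 of these rose in NASH, beside 15.3% of all genes, with a median of 2.71. The chemokines Ccl3 at 3.97 and Ccl4 at 3.87, which macrophages also make, and the cystatin Cst7 at 3.32 were highest, and Rab27a, needed for granule release, was at 1.09. The exception was Prf1, which encodes perforin, the pore that lets granzymes in. Prf1 was at 0.31, 0.32 and 0.78 TPM in Control, 0.76, 0.65 and 0.46 TPM in NASH and 0.50, 0.33 and 0.10 TPM in NASH+Exercise, with a log2 fold change of 0.0086 in NASH (edgeR adjusted p = 0.991). Of 19 NK cell receptor genes only 8 had enough counts for a test, and 7 of these rose, of which 4 had passed only through the NASH mice. Cd244a was at 3.96, Klrb1b at 3.67 and Klrk1, which encodes NKG2D, at 2.71, while Klrb1c at 1.02 was just past the limit and Cd160 at 0.79 was not called. Several of these receptors have close paralogs, between which reads can be split uncertainly. Ncr1, a gene nearly private to NK cells, was at 0 to 0.24 TPM in Control, 0.45 to 0.69 TPM in NASH and 0 to 0.33 TPM in NASH+Exercise and was not tested.

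Of 13 tested genes of exhaustion and tissue residency 8 rose in NASH, beside 15.3% of all genes, with a median of 1.91. Pdcd1, which encodes PD-1, had 0 counts in all Control mice and 12 to 22 in NASH mice, at least 4.05-fold higher against a floor of 3 counts per library, both scaled by TMM. It had 5 to 13 counts in trained mice, at least 2.33-fold higher than Control, and the median of the list in NASH is also 1.91 with Pdcd1 at its bound. Havcr2 was at 3.92, Tnfrsf9 at 3.23 and Cxcr6, a receptor of liver-resident lymphocytes, at 2.53. Lag3 was at -0.17 and Tox, a factor of exhausted T cells, at -0.76, and neither was called. Of 14 genes that attract or sustain these cells 11 rose and 1 fell, with Ccl19 at 4.04, H2-Aa at 3.62, Cxcl9 at 3.44 and Cxcl10 at 2.46. Ccl21a fell (log2 fold change -1.59, edgeR adjusted p = 0.00709), and it has near-identical copies among which reads may be divided.

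In NASH+Exercise against NASH, edgeR called none of the 84 tested genes of these 7 lists, of which 30 had an unadjusted p under 0.05 with a lower level, against 10.7% of all genes. Some of these genes had passed the filter only through the NASH mice, which favours a lower level in trained mice, here and in the medians. Klrb1c, Foxp3 and Xcl1 were among them. Cxcl9 was called lower by DESeq2 on all 9 mice. The chemokine genes Ccl5 (DESeq2 and limma on log2(TPM + 1)) and Xcl1 (limma) were also called lower and are named after their values were seen. The median log2 fold changes were -0.94 for the NK receptors, -0.80 for exhaustion and residency, -0.65 for the cytotoxic effectors, -0.62 for helper and regulatory genes, -0.61 for receptor and signalling, -0.46 for naive and memory genes and -0.36 for the attracting signals, beside -0.033 over all genes. Cxcl9, a chemokine that draws CXCR3-bearing T cells, was at 43.84, 23.72 and 55.55 TPM in NASH and 19.64, 16.4 and 6.82 TPM in NASH+Exercise, with a log2 fold change of -1.29 (edgeR adjusted p = 0.199). Cxcr6 was at -1.04, Klrb1c at -1.74 and Foxp3 at -0.35. Against Control, trained mice had 11 of 20 receptor and signalling genes, 10 of 14 attracting signals, 8 of 13 cytotoxic genes, 5 of 13 exhaustion and residency genes (Pdcd1, Havcr2, Cxcr6 and, outside the rule for names, Entpd1 and Cxcr3), 3 of 8 naive and memory genes, 4 of 8 NK receptor genes (Cd244a, Klrb1b, Klrk1 and, outside the rule for names, Il2rb) and 1 of 8 helper and regulatory genes (Foxp3) called higher, beside 10.4% of all genes. Zap70, Tox and Ccl21a were called lower, as were 3.07% of all genes.

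**Figure D4:**
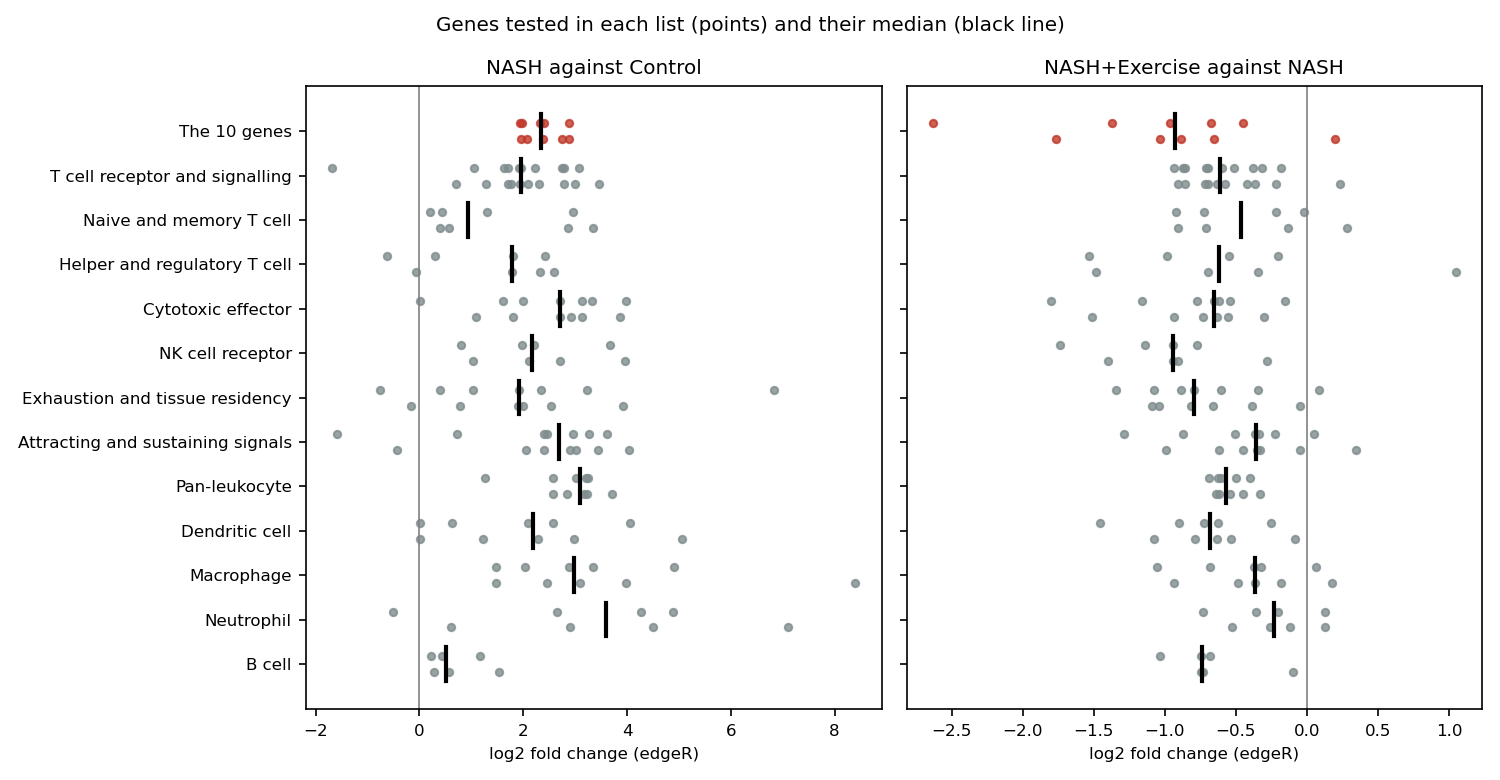
Log2 fold change from edgeR (horizontal axis) of each tested gene in the 10 genes and the lists of other lymphocyte and leukocyte genes. The mast cell and basophil list is left out, and the median of each list is a black line. In NASH against Control the medians ran from 0.51 for B cell genes to 3.59 for neutrophil genes, with 2.35 for the 10 genes, and in NASH+Exercise against NASH all medians were below 0. The point of Pdcd1 at the far right of its list has no counts in Control, so its position depends on the prior count.

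Markers of other leukocytes moved in the same libraries. All 10 pan-leukocyte genes rose in NASH (median 3.09), beside 15.3% of all genes tested. Their summed level spanned 35.38 to 63.04 TPM over the Control mice, 439.03 to 533.05 TPM over the NASH mice and 201.64 to 358.49 TPM over the trained mice. Of 10 macrophage genes 9 were called higher, and Timd4 was also higher but not called. Their median was 2.99 and their summed level 66.11 to 135.85, 932.04 to 1342.81 and 605.9 to 789.62 TPM in the same order. Of 8 neutrophil genes 6 rose (median 3.59). Of 10 dendritic cell genes 7 rose (median 2.18), with a summed level of 4.1 to 7.44, 26.56 to 40.3 and 10.39 to 26.01 TPM. Xcr1, a marker of the dendritic cells that carry the CD8 alpha chain, was at 0.01 and not called. Clec9a and Batf3 of the same list, named after their values were seen, were called higher. Their means were 0.95 and 0.69 TPM in Control and 2.99 and 4.6 TPM in NASH. Of 6 B cell genes 1 rose, Fcrla (median 0.51), 0 of 9 hepatocyte genes was called by edgeR (median -0.31), and of 6 erythroid genes 1 rose, Slc4a1 (median 0.15). Of 7 mast cell and basophil genes, 1 could be tested and was not called. Between trained and NASH mice the medians were -0.57 for pan-leukocyte, -0.37 for macrophage, -0.23 for neutrophil, -0.68 for dendritic cell, -0.74 for B cell and 0.25 for hepatocyte genes. No gene of these lists was called by edgeR, and 11 of 60 had an unadjusted p under 0.05 with a lower level, against 10.7% of all genes. Of the genes tested, 2 dendritic cell and 2 B cell genes, Fcrla among them, had passed the filter only through the NASH mice. Flt3, a dendritic cell receptor named after its values were seen, was called lower by DESeq2. The part of these other cells in the values of Cd4, Cd8a and the other genes was not tested.

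The 10 genes were compared with each other by the root mean square difference of their centred log2 CPM over the 9 mice, a description without a test over libraries that share their groups. Cd3g and Cd8a were the closest pair at 0.277, followed by Cd3g and Cd8b1 at 0.301, Cd3d and Nkg7 at 0.307, and Cd8a and Cd8b1 at 0.330. The farthest pairs were Cd4 and Gzma at 1.38, Cd3e and Gzma at 1.13 and Cd4 and Klrd1 at 1.11. Over all genes tested, the 5 nearest to Nkg7 were Dusp2 at 0.166, Coro2a at 0.190, Wdfy4 and Arhgdib at 0.193 and Rinl at 0.196. The 5 nearest to Cd3e were S100a6 at 0.194, Meis3 at 0.224, Cx3cl1 at 0.238, Chtf18 at 0.246 and Uap1l1 at 0.256, and none of the 10 genes was among either set.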

How the data were processed

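Liver RNA of 9 mice was sequenced, 1 library per mouse. For each gene the authors deposited an estimated count, not normalized and not whole for 29.0 to 32.8% of values, with FPKM and TPM, which the authors scaled by length and library. The submitters' processing notes name HISAT2 2.1.0, Bowtie2 2.2.5, RSEM 1.2.8 and GRCm38.p6. One table holds all 9 mice, and 0 of its 321228 estimated counts and TPM values differed from the tables of single mice. FPKM was not used. Of 17846 Entrez identifiers 17728 had a RefSeq symbol. Whether libraries were made in batches is not given in the sources used here, and p-values measure the spread between these mice.

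Estimated counts were rounded and fitted with edgeR 4.0.16 in R 4.3.3 (TMM, filterByExpr by group with 10 counts and a total of 15, robust quasi-likelihood fit of all 9 mice, 6 residual degrees of freedom). P-values were adjusted by Benjamini-Hochberg over 13619 genes. Deposited TPM gave levels and within-mouse ratios, which needed 10 counts in the denominator and were adjusted over 9 ratios. Gzmb per Gzma was left out, since Gzma fell short of 10 counts in all mice outside NASH. Alternatives used DESeq2 1.42.0, limma 3.58.1, other scalings, filters and call rules, and each mouse left out. The code was tested on simulated data.

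The 10 genes, lists and tests were chosen with earlier results of these data known. Named beside the 10 genes were the 3 highest and 2 lowest genes of a list in NASH against Control, any called in NASH+Exercise against NASH, Ptprc, Adgre1, Cd247, Prf1, Ncr1, Foxp3, Cxcr6, Pdcd1, Cxcl9 and Cxcl10, and the 5 genes nearest to Cd3e and to Nkg7 (log2 CPM, prior count 2). For the lists of other cell types, mainly counts, medians and summed levels are given. Values of some genes of the lists are not reported here.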

Additional observations from a re-analysis of the deposited data

How the results depend on the processing

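Of the 10 genes, 10 were called higher in NASH against Control under all settings but a minimum of 50 counts, where 6 genes were tested and 6 called, glmTreat against a log2 fold change of 1, where 7 were called, and single mice left out, with 8 to 10. For NASH+Exercise against NASH edgeR called 0 (0 to 0 with a mouse left out), DESeq2 called 1 on all 9 mice and 2 on 6 mice, and limma on log2(TPM + 1) called 1. Trained against Control mice, where 7 were called, gave 4 with edgeR on 6 mice, 2 with limma on log2(TPM + 1), 1 with glmTreat and 4 to 8 with a mouse left out. The log2 fold change of Cd4 in NASH+Exercise against NASH turned to -0.027 with library size alone, to -0.086 with limma on log2(TPM + 1) and to -0.12 on log2(TPM + 0.1), and that of Gzma in NASH+Exercise against Control ran from -0.33 to 1.41 with a mouse left out, being -0.33 without Control mouse 3 and -0.20 without NASH+Exercise mouse 8. Scaling by library size alone brought the median over all genes to 0.36, -0.23 and 0.15 on the log2 scale. The cause of these changes was not tested.

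Ratios that separated the groups numbered 0 for NASH against Control (0 to 4 with a mouse left out), 3 for NASH+Exercise against NASH (3 to 5) and 1 for NASH+Exercise against Control (1 to 4). Some log2 differences of ratios with overlapping groups changed sign when a mouse was left out. Those of CD8 chains per CD3 chains ran from -0.15 to 0.12 in NASH+Exercise against NASH, and were 0.045 with counts in place of TPM, and those of CD3 chains per Ptprc from -0.39 to 0.16. For NASH against Control the ranges were -0.72 to 0.73 for Cd8a per Cd4, -0.68 to 0.15 for Cd4 per CD3 chains and -0.28 to 0.36 for Nkg7 per CD3 chains. For NASH+Exercise against Control they were -1.16 to 0.39 for granzymes per CD3 chains and -0.11 to 0.53 for Nkg7 per CD3 chains.

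Over all genes, the calls in NASH+Exercise against NASH moved most, from 14 higher and 5 lower with edgeR to 64 and 107 with DESeq2 on 9 mice, 78 and 126 on 6 mice, 25 and 85 with limma on log2(TPM + 1), 0 and 0 with glmTreat, and 0 to 28 higher and 0 to 6 lower with a mouse left out. Lower calls alone went to 2 with edgeR on 6 mice, 8 with no filter and 11 with limma on log2(TPM + 0.1). For NASH against Control, 2082 higher and 412 lower became 1155 and 154 with glmTreat, while lower calls became 219 with library size alone, 153 and 187 with limma on log2(TPM + 1) and log2(TPM + 0.1), and 1960 by adjusted p alone. For NASH+Exercise against Control, 1418 higher and 418 lower became 630 and 143 with glmTreat and 821 and 247 with limma on log2(TPM + 1), and lower calls 1305 by adjusted p alone. No paired analysis was possible because the groups share no replicate number. Depth limits the Control values most, where single genes had at most 29.04 counts.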
